A study of Mus musculus with 3 samples.

Results

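The 7 genes described here, Gas5, Snhg1, Snhg3, Snhg5, Snhg6, Snhg8 and Snhg12, make spliced noncoding RNAs whose introns carry small nucleolar RNAs (snoRNAs). They were chosen by symbol from the 55536 GENCODE M21 genes listed in the deposited tables, of which 13374 are in the annotation's long noncoding set. Total RNA, freed of ribosomal RNA, came from the cytosol of BMDM, macrophages cultured from the bone marrow of C57BL/6J mice. All cells had received 100 ng/ml lipid A, the Toll-like receptor 4 ligand of bacterial lipopolysaccharide, for 50 min. There are 3 libraries of this 1 group, labelled as biological replicates with separate biosample records but the same donor label. The labels do not say whether they are separate animals or cultures, so each p-value is set by the spread between these 3 libraries, and that spread may be technical. Sex and age are not given, no unstimulated cells were analysed here, and no value is a response to lipid A.

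A snoRNA host gene is transcribed and spliced like a messenger RNA gene, and its introns are trimmed to the snoRNAs, which stay in the nucleus and guide the chemical modification of ribosomal and other RNAs. Box C/D snoRNAs guide ribose methylation with fibrillarin (Fbl), and box H/ACA snoRNAs guide pseudouridylation with dyskerin (Dkc1). The joined exons reach the cytosol, where ribosomes engage them and nonsense-mediated decay, which destroys RNAs with an early stop codon, removes many of them. Many hosts begin with a run of pyrimidines, as ribosomal protein genes do, and the RNA of Gas5 (growth arrest-specific 5) accumulates in cells that stop growing.

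The start of each host is shown because a pyrimidine run there is the feature these genes are known to share with ribosomal protein genes. RefSeq promoter sequences (GRCm38.p6, the mm10 assembly) were matched by symbol for 6 of the 7 genes, and Snhg6 had no entry. Each line gives 20 bases before and 40 bases from the annotated start, with the unbroken run of C or T at the start in capitals.
Gas5, chr1:161035146-161035205 (plus strand): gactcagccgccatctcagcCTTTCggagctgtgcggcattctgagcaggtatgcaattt
Snhg8, chr3:123508297-123508356 (minus strand): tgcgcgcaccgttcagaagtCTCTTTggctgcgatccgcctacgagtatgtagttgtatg
Snhg12, chr4:132308658-132308717 (plus strand): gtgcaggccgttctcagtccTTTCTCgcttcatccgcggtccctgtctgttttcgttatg
Snhg1, chr19:8723467-8723526 (plus strand): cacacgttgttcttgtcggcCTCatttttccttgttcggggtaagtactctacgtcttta
Snhg3, chr4:132353647-132353706 (minus strand): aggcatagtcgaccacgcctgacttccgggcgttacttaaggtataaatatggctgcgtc
Snhg5, chr9:88522858-88522917 (minus strand): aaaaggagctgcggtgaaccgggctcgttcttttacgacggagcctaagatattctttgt
Gas5 starts with a run of 5 pyrimidines, Snhg8 and Snhg12 with 6, and Snhg1 with 3. Snhg3 and Snhg5 start with G. A start with C followed by pyrimidines to a run of at least 5 was found in 2 of the 6 hosts, Gas5 and Snhg8. Snhg12 starts with T. The same start was found in 3.01% of the 27025 genes with a promoter in the table and in 24.1% of 58 cytosolic ribosomal protein genes. It was found in 1 of 13 other noncoding snoRNA hosts (7.69%). The annotated start of Gas5 lies 3 bases inside that of its most abundant transcript, and that of Snhg8 lies 68 bases inside, so the runs depend on which start is taken. These are matches of letters on the strand of the gene at 1 annotated base, with no measurement of the start in these libraries.

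The introns of the hosts carry 29 annotated snoRNA genes at 27 separate places, since Snord80 and Snora16a are each annotated as a pair of overlapping genes. Gas5 holds 9 places, Snhg1 holds 8, Snhg12 holds 4, Snhg3 and Snhg5 hold 2 each, and Snhg6 and Snhg8 hold 1 each. Every place lay in an intron of the host's most abundant transcript of the first quantification, and no intron held more than 1, so that 27 of the 35 introns were occupied. With the most abundant transcripts of the second quantification it was 26 of 27, since Snhg1 then starts inside Gm25855. The letters that define the families are shown for 1 snoRNA or pair from each of 6 hosts, from the GENCODE M21 transcripts (mm10). Capitals mark TGATGA (the C box) within the first 20 bases, CTGA (the D box) within the last 14, or ACA placed 3 bases before the end.
Snord47, chr1:161038082-161038158 (plus strand): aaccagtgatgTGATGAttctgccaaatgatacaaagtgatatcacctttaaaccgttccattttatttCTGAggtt
Snord87, chr1:9942463-9942549 (minus strand): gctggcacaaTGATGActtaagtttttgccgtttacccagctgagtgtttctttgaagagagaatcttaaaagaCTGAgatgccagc
Snord50a, chr9:88521529-88521600 (minus strand): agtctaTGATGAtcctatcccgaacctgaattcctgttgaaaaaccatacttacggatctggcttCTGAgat
Snord50b, chr9:88521797-88521868 (minus strand): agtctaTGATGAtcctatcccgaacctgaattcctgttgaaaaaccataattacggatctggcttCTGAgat
Snord22, chr19:8725866-8725991 (plus strand): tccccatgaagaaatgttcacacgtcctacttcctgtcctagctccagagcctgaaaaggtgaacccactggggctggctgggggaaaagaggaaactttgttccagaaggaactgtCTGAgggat
Snora24, chr3:123507937-123508066 (minus strand): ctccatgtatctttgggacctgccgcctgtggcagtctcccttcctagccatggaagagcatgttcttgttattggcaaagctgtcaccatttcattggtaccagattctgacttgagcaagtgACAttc
Snora73b, chr4:132352322-132352526 (minus strand): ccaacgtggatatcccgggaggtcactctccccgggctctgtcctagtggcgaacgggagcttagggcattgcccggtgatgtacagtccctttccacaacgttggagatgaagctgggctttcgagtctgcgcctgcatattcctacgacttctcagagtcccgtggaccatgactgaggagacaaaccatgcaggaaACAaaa
Snord47 belongs to Gas5, Snord87 to Snhg6, the Snord50 pair to Snhg5, Snord22 to Snhg1, Snora24 to Snhg8 and Snora73b to Snhg3. The Snord50 pair differs at 1 of 72 bases. Snord22 shows the D box but not TGATGA. Both C/D motifs were found in 16 of the 27 places (59.3%), against 20.1% of all 1507 annotated snoRNA genes, searched on the strand of the gene. The ACA motif was found in 5 of the 27 (18.5%), near the 18.3% of all snoRNA genes, and these 5 are among the 6 places with an H/ACA symbol.

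The snoRNAs also share a place within their introns. Between 65 and 81 bases separated the snoRNA from the 3′ end of its intron in 23 of the 27 places. The other four were Gm26224 and Snord80 in Gas5 at 278 and 313 bases, Snora16a in Snhg12 at 237 bases and Gm23246 in Snhg1 at 121 bases. The ends of the range from 65 to 81 are distances found among these places, and no distances for other hosts are given here. Places with both C/D motifs had a median of 74 bases (range 65 to 313, 16 places), 13 of them at 60 to 80 bases. Places with an H/ACA symbol had a median of 79.5 (range 74 to 237, 6 places). Such a distance is known from mammalian C/D snoRNAs, whose assembly is coupled to splicing. The values come from the annotation and carry no measurement error.

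**Figure D1:**
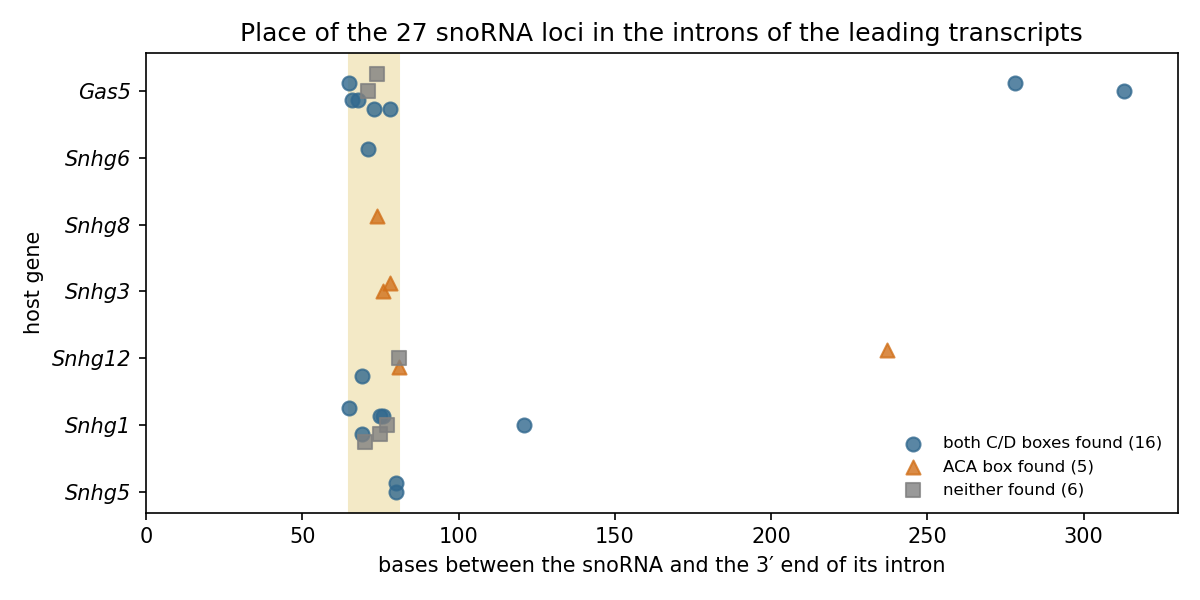
Each point is 1 of 27 snoRNA places, set by its distance in bases from the 3′ end of its intron (x axis) and its host gene (y axis, points spread slightly for sight). The shaded band runs from 65 to 81 bases and holds 23 of the 27 places, and Gas5, Snhg12 and Snhg1 hold those beyond it.

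The exons left after splicing are short. The most abundant Gas5 transcript has 12 exons of 28 to 81 bases, which make 502 bases from a span of 3375, or 14.9%. Its Snhg1 counterpart joins 10 exons to 605 bases of a span of 2969, or 20.4%. At the other end, 54.6% of the Snhg5 span and 52.5% of the Snhg8 span is exon. The longest open reading frame that starts with ATG ranged from 35 codons in Snhg8 to 66 in Snhg5, with a median of 43. In 5 of the 7 RNAs it stopped more than 50 bases before the last exon junction, by 72 bases in Snhg1 and 213 in Snhg12. In Snhg3 and Snhg5 it stopped in the last exon. A stop well before the last junction is the feature nonsense-mediated decay reads, and translation was not measured here.

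Gene expected counts, the estimated numbers of reads per gene, summed to 33044910, 36769402 and 36522216 in libraries 1, 2 and 3. A count of 0 allows up to 3 counts, or 0.0816 to 0.0908 CPM (counts relative to the library's total), counting error only. All 10 macrophage markers were detected in each library at 1 TPM or more, led by Lyz2 at 6416 ± 1364 TPM (SD, n = 3). Of these 1 was called in the edgeR test of variation, against 1.66% of all tested genes. It was C1qa, with 5.74, 6.54 and 6.64 log2 CPM (edgeR adjusted p = 0.0155). Of the 4 markers of neutrophils, only S100a8 reached 1 TPM in every library, with 11.9 ± 0.376 TPM. The median of that list was 0.222 TPM, and 1 gene was listed at 0 throughout. Of the 4 erythroid and megakaryocyte markers, only Pf4 did so, with 223 ± 17.8 TPM. That list had a median of 0.0133 TPM, with 2 genes listed at 0 throughout. The lists of T and NK, B and mast cell markers summed to at most 0.18 TPM each. That of fibroblasts and endothelium summed to at most 0.77. The part of other cells in the host values was not tested. TPM is a length-corrected share of all RNA listed. The median log2 TPM of detected genes lay 0.19 above, 0.29 below and 0.10 above the 3-library mean in libraries 1, 2 and 3. Comparisons between libraries therefore use log2 CPM scaled by TMM, where that median lay within 0.01 of 0, and TPM is used to compare genes.

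The host RNAs were of moderate abundance, and Gas5 was far above the others. Gas5 had 41.1, 27.2 and 49.7 TPM in libraries 1, 2 and 3 (39.4 ± 11.3, SD, n = 3) on 517, 549 and 802 expected counts. It ranked 15 among the long noncoding genes by mean TPM and 1363 among all genes. The gene lies at chr1:161034422-161038539 on the plus strand. The intervals deposited beside its TPM, whose level is not stated, ran from 38.2 to 45.5, from 25.7 to 30.6 and from 46.6 to 53.6. They cover the quantification within a library and not the shift of TPM between libraries given above.

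Snhg6 (chr1:9941959-9944118, minus strand), the host of Snord87, had 7.29, 8.65 and 13 TPM. Snhg8 (chr3:123507552-123508404, minus strand), the host of Snora24, had 4.93, 7.52 and 14 TPM. Snhg3 (chr4:132348014-132353686, minus strand) had 10.1, 4.22 and 5.79 TPM. Library 1 was thus the lowest of the 3 for Snhg6 and Snhg8 and the highest for Snhg3, which carries the H/ACA snoRNAs Snora73a and Snora73b of early ribosomal RNA processing. Their means were 9.65 ± 2.98, 8.83 ± 4.69 and 6.69 ± 3.02 TPM (SD, n = 3), on 47 to 175 expected counts per library.

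Snhg12 (chr4:132308623-132311024, plus strand), the host of Snora16a, Snora44, Snora61 and Snord99, had 3.22, 3.49 and 4.36 TPM. Snhg1 (chr19:8723475-8726443, plus strand) had 1.3, 3.21 and 3.26 TPM. Snhg5 (chr9:88521050-88522929, minus strand), the host of the Snord50 pair, had 1.4, 0.92 and 1.05 TPM and was the only member under 1 TPM in any library. These 3 genes rest on 35 to 98 expected counts per library. The Snhg1 values of libraries 1 and 3 lie below their own deposited intervals (1.74 to 3.7 and 3.36 to 5.38), the only 2 of the 21 member values outside theirs, so its TPM is the least certain.

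Gas5 was above every other host in each library, and lower down the order held in part. The order is counted as the same where all 3 libraries share it, and a two-sided exact sign-flip test over 3 pairs could not give a p below 0.25. Of the 6 neighbouring pairs, 3 kept their order in all libraries. Gas5 stood 5.63, 3.15 and 3.83 times above Snhg6. Snhg3 stood 3.12, 1.21 and 1.33 times above Snhg12, and Snhg12 stood 2.48, 1.09 and 1.34 times above Snhg1. Snhg6 against Snhg8, Snhg8 against Snhg3 and Snhg1 against Snhg5 changed places between libraries. In the second quantification that the authors deposited, Snhg12 and Snhg1 changed places too (ratios 1.54, 0.915 and 1.09), and Snhg1 was above Snhg5 in all 3 libraries (1.36, 3.41 and 3.25).

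Together the hosts held 69.3, 55.3 and 91.2 TPM (71.9 ± 18.1, SD, n = 3), of which Gas5 made 59.3%, 49.3% and 54.5%. That is 0.914% ± 0.273 of the TPM on long noncoding genes. Those genes held 9019, 7421 and 7421 TPM, of which Rmrp alone had 4609 ± 751 (SD, n = 3), so the share depends on that RNA. At 1 TPM or more in all 3 libraries were 6 of the 7 hosts, and 194 of the 13374 long noncoding genes. The second quantification gave lower TPM for every member, with 26.3 TPM in sum and 22.5, 10.8 and 12.2 for Gas5. There library 1 was the highest for Gas5 and library 3 was not, while the estimated counts of Gas5 there, 772, 671 and 983, were again highest in library 3. TPM is a share of all RNA listed in each table, so the order of the hosts rather than their TPM is compared across the quantifications.

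**Figure D2:**
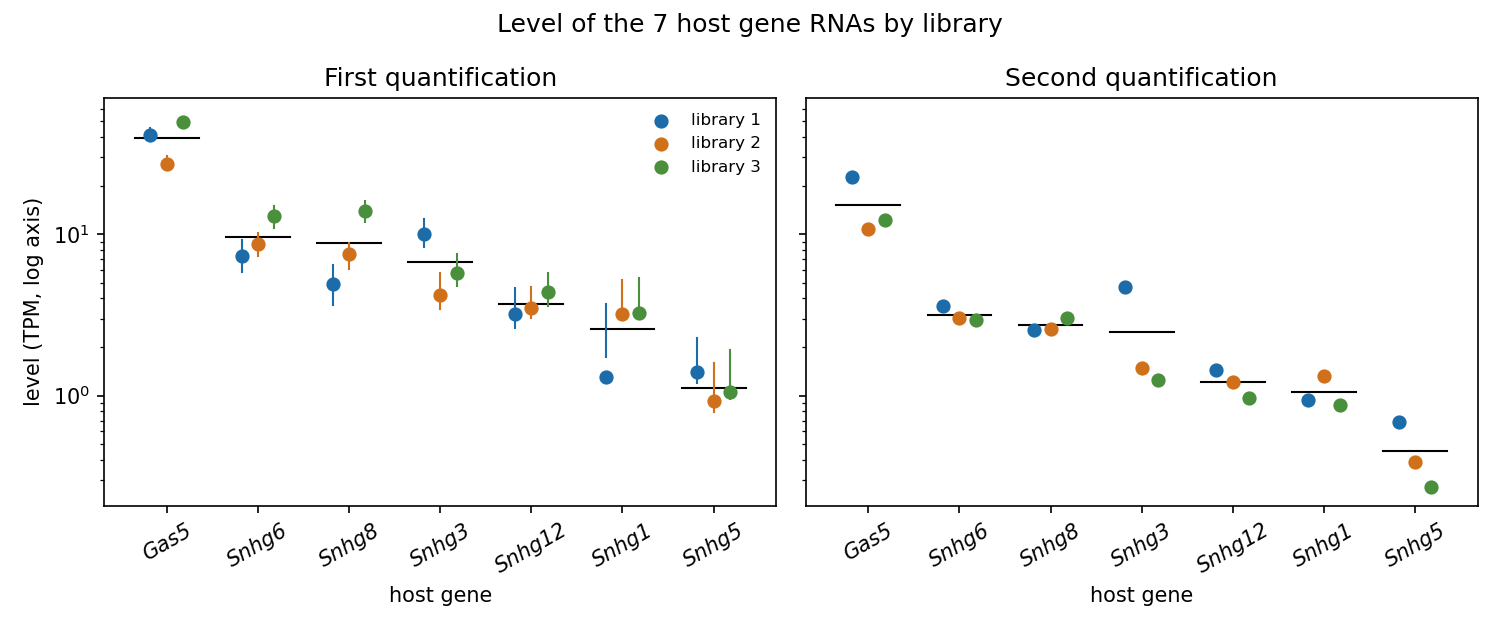
Level of each host RNA in TPM (log axis) by library in the first and the second deposited quantification. Points are libraries, black bars the means, and thin vertical lines in the left panel the deposited intervals. Gas5 is the highest in every library in both panels, and all levels are lower in the second.

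Counts per library put no host RNA past the test of variation between libraries. With edgeR's goodness-of-fit test and Benjamini-Hochberg adjustment over 12231 genes at 0.05, 0 of the 7 were called, against 1.66% of all tested genes (203 genes). At an unadjusted p under 0.05 there was 1 of 7, against 6.42% of all genes. With DESeq2 scaling and dispersion put into the same test, 0 of 7 were called. The lowest adjusted p was 0.141, for Snhg8, and the next was 0.849, for Snhg1. On simulated counts with these library sizes the same step called 32 of 100 genes moved 2-fold and 100 of 100 moved 4-fold. A change of 2-fold in 1 library would thus often be missed. Only genes above a minimum mean count were moved, and all simulated counts shared 1 biological coefficient of variation, 0.147. The test of the real counts used a dispersion trend, so these rates hold for the simulated setting only. How often the step calls a change at the low counts of the hosts other than Gas5 was not tested. Snhg8 was not called, although its highest CPM was 3.37 times its lowest.

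Snhg8 varied most. It had 47, 116 and 175 expected counts, or 0.51, 1.70 and 2.24 log2 CPM. Library 3 was 1.73 above library 1 on this scale (edgeR adjusted p = 0.141). Snhg1 had 0.09, 1.46 and 1.02 log2 CPM (edgeR adjusted p = 0.849) and Snhg6 had 1.16, 2.00 and 2.17 (edgeR adjusted p = 0.976). In these 3 genes library 1 was the lowest, although none passed the adjusted threshold.

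Gas5, with the most counts, had 3.96, 3.94 and 4.43 log2 CPM (edgeR adjusted p = 1), so libraries 1 and 2 were level and library 3 was higher by 0.47 than library 1. Snhg12 had 0.68, 1.37 and 1.20 log2 CPM. Snhg3 had 1.44, 0.73 and 0.90 and was highest in library 1. Snhg5 was the steadiest at 0.28, 0.10 and 0.16 (edgeR adjusted p = 1), with its highest CPM 1.17 times its lowest, on 38 to 41 counts.

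Over the 7 hosts the median deviation from each gene's own average was -0.40, 0.22 and 0.17 log2 CPM in libraries 1, 2 and 3, highest in library 2. The mean was -0.34, 0.11 and 0.23, highest in library 3. Library 1 was the lowest for 4 of them and library 3 for 0, against 38.3% and 29.8% of all tested genes. The 79 cytosolic ribosomal protein genes, known for pyrimidine starts, had median deviations of -0.20, -0.04 and 0.25, and 71 of them were highest in library 3. Of these 11 were called (13.9%, against 1.66% of all tested genes), with Rps21, Rpl39, Rpl36, Rplp2 and Rpl37 at the lowest adjusted p. Rps21 had 5.72, 6.92 and 7.10 log2 CPM (adjusted p = 2.1e-06), and Rpl41 was the highest of the list at 1187 ± 290 TPM (SD, n = 3). Of the 7 hosts, 3 were highest in library 3 (Gas5, Snhg6 and Snhg8), which is near the 32% of all tested genes.

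RNAs known to stay in the nucleus varied in another way. All 6 tested of the 12 listed were highest in library 2, and 5 were called, namely Malat1, Neat1, Xist, Kcnq1ot1 and Firre. Of all tested genes 1.66% were called, and of the 745 tested long noncoding genes 7.38%. Highest in library 2 were 3813 of all 12231 tested genes and 387 of those 745. Malat1, the highest of the list, had 11.06, 12.35 and 10.07 log2 CPM (adjusted p = 3.91e-09). The list's median deviations were -0.24, 0.82 and -0.54. Of the 7 hosts 2 were highest in library 2, Snhg1 and Snhg12, against the 3813 of all 12231 tested genes. The part of nuclear RNA in the host values was not tested, and fewer cells and less RNA per cell cannot be told apart in such bulk libraries.

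**Figure D3:**
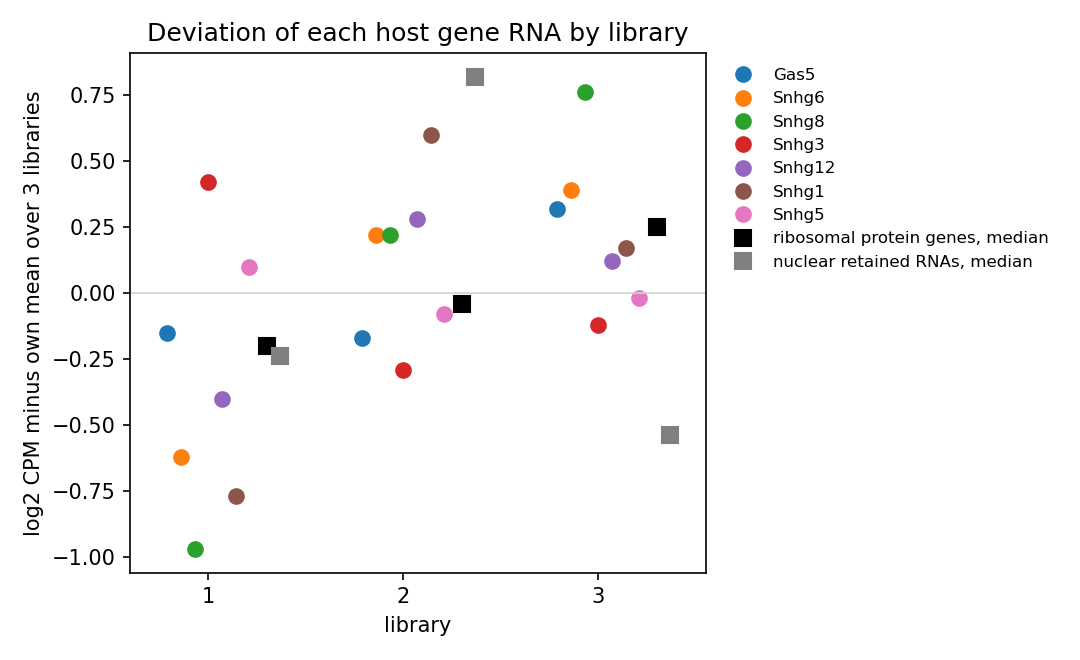
Log2 CPM of each host RNA minus its own mean over the 3 libraries (y axis) by library (x axis). Circles are the 7 hosts, black squares the median of 79 ribosomal protein genes and grey squares the median of 6 tested nuclear RNAs. Snhg8 spans the widest range, from -0.97 to 0.76, and the nuclear RNAs stand at 0.82 in library 2.

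The genes whose pattern over the 3 libraries was most like the hosts' mean, among 6685 tested genes with at least 500 expected counts on average, were Trappc2l, Tbcb, Gm13509, Cenpa and Psmb4. Trappc2l, a subunit of a vesicle-tethering complex, had deviations of -0.34, 0.10 and 0.24, at a root mean square difference of 0.00562. Psmb4, a proteasome subunit and the fifth, was at 0.0151. With 3 libraries a pattern has few ways to differ, so this is a description only.

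In the first quantification 6 of the 7 hosts had most of their TPM in 1 spliced transcript in every library, and Snhg5 did not. For Gas5 this was Gas5-224, with 27.6, 20.5 and 36.1 TPM, or 71.6% ± 4.01 of the gene (SD, n = 3). Gas5-210 followed with 11.5, 5 and 11.3 TPM, or 23% ± 4.78. Gas5-224 was the higher of the pair in every library, and the second quantification gave it 69.5%. The pair differs in the first exon, which starts 96 bases further upstream in Gas5-210, and in exon 7 of Gas5-224, 41 bases at chr1:161037124-161037164 that Gas5-210 skips. That exon is shown in capitals between 20 bases of each neighbouring exon, since reads across it tell the forms apart.
Gas5-224: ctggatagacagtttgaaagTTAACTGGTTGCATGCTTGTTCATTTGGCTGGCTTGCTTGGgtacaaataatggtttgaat

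Snhg8-201 held 95.7% ± 3.37 of Snhg8 TPM, Snhg3-204 held 95.5% ± 1.55 of Snhg3 and Snhg12-206 held 86.1% ± 7.47 of Snhg12 (SD, n = 3). Snhg6 was split between Snhg6-203 at 77.9% ± 5.98 and Snhg6-204 at 19.1% ± 5.82, with the first higher in each library. Snhg5 had no steady leader. Snhg5-201 held 36.2%, 43.5% and 84% and Snhg5-202 held 46.1%, 56.5% and 12.3%, so the order turned in library 3, on 3.73 to 35.4 expected counts per transcript.

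Snhg1 was the member whose transcript depended on the quantification. The first assigned 78.5%, 70.2% and 95.4% of its TPM to Snhg1-211 and at most 3.42% to Snhg1-207. The second assigned 12.5%, 10.7% and 22.3% to Snhg1-211 and 75.7%, 69.4% and 74.8% to Snhg1-207. All but the first exon of Snhg1-211, 573 of its 605 bases, is also in Snhg1-207, so only reads over the first exons tell them apart. Their starts are shown for that reason. Capitals mark the 32-base first exon of Snhg1-211 at chr19:8723475-8723506 and, in the first 100 bases of Snhg1-207 (chr19:8724005-8724104), the 60 bases that lie inside the snoRNA gene Gm25855.
Snhg1-211: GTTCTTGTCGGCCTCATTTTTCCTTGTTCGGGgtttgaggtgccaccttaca
Snhg1-207: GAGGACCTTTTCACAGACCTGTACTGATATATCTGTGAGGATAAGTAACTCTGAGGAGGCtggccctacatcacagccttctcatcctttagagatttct
The start of Snhg1-207 thus falls within a snoRNA in the first intron of Snhg1-211. Which of the forms these cells contain was not settled by the deposited values.

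**Figure D4:**
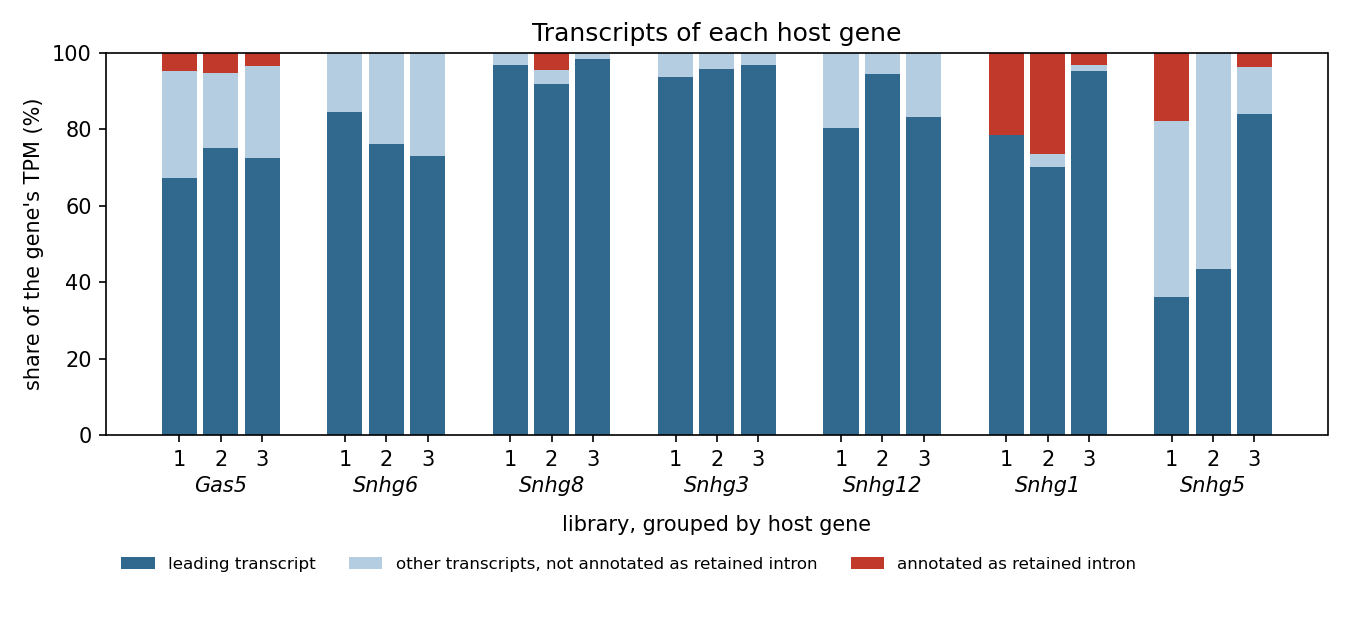
Share of each host gene's TPM (y axis, %) in its most abundant transcript, in other transcripts and in transcripts annotated as retained intron, per library (x axis). Transcripts of that annotated class show in Gas5, Snhg8, Snhg1 and Snhg5, and Snhg1 has 21.5%, 26.4% and 3.07%. Snhg12 has none in the class, but some of its other transcripts keep a whole snoRNA in an exon.

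Transcripts annotated as retained intron, which keep intron sequence that splicing would remove, made up a small part of the host RNA. Of the 72 annotated transcripts of the hosts 38 are in this class, in Gas5, Snhg1, Snhg5 and Snhg8. They held 3.48%, 4.76% and 1.91% of host TPM (3.38% ± 1.43, SD, n = 3) and, being longer, 6.81%, 11.5% and 4.27% of the expected counts. Library 2 was highest on both scales. The median share over 5808 other genes that have such a transcript and reach 1 TPM in each library was 0.865%, 1.71% and 0.933%, and over the 20 of them that are long noncoding it was 7.33%, 9.65% and 4.16%. Library 2 was highest there too. These are medians of shares per gene, while the host share is of TPM summed over all 7 hosts, so the measures differ. Per gene, the mean share was 4.37% in Gas5, 1.46% in Snhg8, 17% in Snhg1 and 7.17% in Snhg5.

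Gas5 carried 31.7, 74.9 and 47.5 counts in this class, or 4.37% ± 1.07 of its TPM. Snhg1 carried 18.6, 39.9 and 10.9 counts, which is 53.2%, 40.7% and 14.6% of all its counts, the highest share of the 4 genes in each library. Snhg8 had 11.6 counts of its retained-intron form in library 2 and 0 in the others. Snhg5 had 7.96, 0 and 1.88 counts. These zeros depend on the quantification. The second gave the Snhg8 form 5.59, 10.2 and 0 counts, and the Snhg5 class 11%, 5.73% and 5.68% of its TPM.

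Some host transcripts still contain a whole snoRNA in an exon. There are 38, of which 30 are annotated as retained intron. The others are Snhg12 transcripts of another annotated class, which the retained-intron shares leave out. All 38 together drew 56.1, 123 and 45.2 counts, or 1.7, 3.36 and 1.24 CPM (2.1 ± 1.11, SD, n = 3). Library 2 was the highest, as it was for the nuclear RNAs and for 387 of the 745 tested long noncoding genes. Of host TPM the 38 transcripts held 2.97%, 3.02% and 1.34%, so libraries 1 and 2 were nearly level on that scale. Gas5-218, which keeps 6 snoRNAs, was listed with 0, 40 and 10.6 counts, and Snhg1-215, which keeps 7, with 0, 24.6 and 2.91. The reads do not have to cover the snoRNA itself, and the part of nuclear RNA in these counts was not tested.

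Few snoRNA genes of the hosts had counts, and whether these come from the mature snoRNA was not tested. The labels give a size range of 250-400 for the library, and in the first quantification no annotated snoRNA gene shorter than 121 bases had a count in any library. Of all 1507 snoRNA genes 48 had one. Of the 29 in the hosts 3 had a count in each library and 26 were listed at 0. Of these, 21 have an effective length (the number of places a fragment can start) of 0 in each library. A 0 there is not read as absence of the snoRNA, although Snord22 had 5 and 17 counts in libraries 1 and 2 at an effective length of 0. For the others listed at 0, Snora24, Snora44, Snora61 and the Snora16a pair, the effective length was at most 3.44 in any library. Their 0 says little.

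The second quantification listed 5 of the 29 with a count in any library, adding Snord87 with 2 in library 1 and Snord47 with 0.845 in library 2, both under 3 counts. The 3 with counts in the first were Snora73b, Snora73a and Snord22. Snora73b had 8.97, 37.3 and 47.9 expected counts, Snora73a 5.97, 34.4 and 22.9, and Snord22 5, 17 and 37. Library 1 was the lowest for each. Snora73a and Snora73b differ at 7 of 205 bases, so the counts can have been split between them. They lie inside both Snhg3 and Rcc1 on the same strand. The TPM of Snord22 was listed at 0, 0 and 484 because its effective length was 0 in libraries 1 and 2, and it is not interpreted.

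A gene that overlaps a host on the same strand can share reads with it, and one on the other strand can do so where the counting did not use strand, which is not stated. Rcc1, the exchange factor of the Ran GTPase, covers 5592 bases of Snhg3 on the same strand and starts 81 bases from it. It had 2.31, 2.72 and 2.97 log2 CPM, lowest in library 1, where Snhg3 was highest. Its level was 2.43 ± 0.627 TPM (SD, n = 3). Gm17300 overlaps 1611 bases of Snhg3 on the other strand and had 1.17, 30.2 and 2.46 counts, highest in library 2.

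Zbtb37, a zinc finger gene, overlaps Gas5 by 428 bases on the other strand and had 1.92, 1.14 and 1.55 TPM. Mcmdc2 overlaps Snhg6 by 127 bases on the other strand and had 4 to 7 counts. Slc3a2, the heavy chain of amino acid transporters, starts 106 bases from Snhg1 in the other direction without overlap. It had 186, 143 and 134 TPM, and 8.53, 8.60 and 8.14 log2 CPM, so that it was lowest in library 3 and Snhg1 in library 1. None of these genes that was tested was called (edgeR adjusted p = 1 for Zbtb37, Rcc1 and Slc3a2).

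Other noncoding snoRNA hosts spanned a wide range. Of 15 listed symbols 12 were found, 4 reached 1 TPM in each library and 5 were tested. Of these 5, edgeR called 0, against 1.66% of all tested genes, and 0 had an unadjusted p under 0.05, against 6.42%. The same test with DESeq2 scaling and dispersion called 0. The median level of the 12 was 0.53 TPM, against 6.69 for the 7 genes described here, which were chosen with their levels known. The highest, 2410006H16Rik, had 50.3, 24.6 and 41.5 TPM, a mean of 38.8 ± 13.1 next to the 39.4 of Gas5. Zfas1, Snhg15 and Epb41l4aos had 10.7 ± 3.69, 9.94 ± 2.7 and 9.7 ± 2.01 TPM (SD, n = 3), beside 9.65 ± 2.98 for Snhg6. These 3 were named after their values were seen.

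Protein-coding genes that carry a snoRNA on the same strand numbered 259, of which 202 were tested. Of these 8 were called (3.96%), against 1.66% of all tested genes. Rpl39, Rplp2, Rpl37, Taf1d and Rpl5 had the lowest adjusted p, and 4 of these 5 are ribosomal protein genes that the list above already counts. Taf1d, a subunit of the RNA polymerase I initiation factor, had 5.03, 5.26 and 4.03 log2 CPM (adjusted p = 0.000122) and was thus lowest in library 3. Tpt1 was the highest of the list at 1410 ± 305 TPM (SD, n = 3).

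All 18 genes of snoRNA particles and their assembly reached 1 TPM in each library, with a median of 5.55 TPM. Nhp2, an H/ACA core protein, was the highest at 17.7 ± 1.67 TPM, Fbl had 14.3 ± 2.31 and Dkc1 1.65 ± 0.328 (SD, n = 3). All 18 genes of nonsense-mediated decay and intron turnover did so too, with a median of 6.43. Eif4a3, the helicase of the exon junction complex, was the highest at 34.5 ± 7.6, and Upf1, the central decay helicase, had 8.91 ± 1.22. In each list edgeR called 0 of 18, against 1.66% of all tested genes, and 0 had an unadjusted p under 0.05, against 6.42%. The same test with DESeq2 scaling and dispersion called 0 in each.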

How the data were processed

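Cytosolic RNA of 3 libraries of 1 group was analysed. The expected counts and TPM of the gene and transcript tables, and the estimated counts and TPM of a second transcript table, were made by the authors library by library. Per the labels and the deposited notes, mm10 and GENCODE M21 were the references. The sources used here do not give tools, versions or the strand setting. Genes were matched to the GENCODE M21 annotation, and 81881 listed rows left 55536 with Ensembl identifiers. Rows of no gene held at most 0.365% of counts.

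From these the TPM means and SDs, transcript shares, distances and motifs were computed with Python 3.11.15, pandas 2.3.3 and numpy 2.4.6, and figures with matplotlib 3.10.9. For variation between libraries, expected counts were rounded and tested in edgeR 4.0.16 (R 4.3.3) with filterByExpr, TMM, trended dispersion and a chi-square goodness-of-fit test of each gene, adjusted by Benjamini-Hochberg over all genes at 0.05. Log2 CPM carry a prior count of 0.5, and the biological coefficient of variation was 0.147. The alternatives were the same test with scaling and dispersion trend from DESeq2 1.42.0, other scaling and filters, the second quantification and leaving out each library. A simulation of 12231 genes tested this step, and 0 of 12031 unmoved genes were called.

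The members and all lists were chosen with earlier results of these data known. Other genes were named by rule: per list the called genes (at most 5 by adjusted p) and the highest by TPM, the 3 snoRNAs with most counts, genes overlapping a host or starting within 1000 bases, the 5 most alike in pattern, and transcripts leading or holding 10% of TPM. Fbl, Dkc1, Upf1, Zfas1, Snhg15, Epb41l4aos and the transcripts and snoRNAs singled out by sequence or place were added after seeing values.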

Additional observations from a re-analysis of the deposited data

How the results depend on the processing

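Of the alternatives, 0 of the 7 hosts were called under every one, with the lowest adjusted p of any host between 0.0997 (without library 2) and 0.738 (without library 3). The 203 genes called in all became 88 to 132 when 1 library was left out and 189 with DESeq2 scaling and dispersion. They became 221 with no low-count filter and 200 with the second quantification. The summed host level of 71.9 TPM was 26.3 TPM in the second quantification, 212 TPM when scaled to protein-coding and long noncoding genes alone, which follows from the smaller total, and 32.6 TPM without Gas5, an alternative chosen after seeing the data. The retained-intron share of 3.38% became 7.54% when taken over estimated counts, which weight the longer transcripts more. The share of Snhg1 in Snhg1-211 went from 81.3% to 15.2% in the second quantification, and the cause was not tested. All 7 hosts ranked lower among long noncoding genes in the second quantification, from 15 to 18 for Gas5, 53 to 88 for Snhg8, 133 to 187 for Snhg1 and 246 to 363 for Snhg5. The 3 snoRNA genes with a count in each library stayed 3 under the alternatives, while those with a count in any library went from 3 to 5 in the second quantification. The second quantification also gave 3 ordered pairs, but not the same 3. Counts under 200 per library limit every host but Gas5, and TPM depends on the most abundant RNAs. No paired analysis was possible because the series holds 1 group.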
